A study of Arabidopsis thaliana with 20 samples.

Results

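The mitochondrial genome genes of Arabidopsis thaliana were taken as all features whose identifier starts with ATMG, which gave 122 of the 58844 features counted in each library; the others were 27445 nuclear genes, 88 chloroplast genes and 31189 transposable elements. RNA was sequenced in 20 libraries, 2 for each of 10 groups that combine 2 tissues with 5 genotypes. The tissues were meiocytes, the cells that enter meiosis, taken from floral buds at stages 9 to 10 (300 to 400 masses per replicate), and whole seedlings aged 20 days (4 to 5 plants pooled per replicate). All plants grew at 20 °C with 16 h of light. The genotypes were pol2a-2 and pol2a-1, both with a changed POL2A (DNA polymerase epsilon's catalytic subunit); the triple mutant pol2a-1suvh2suvh9; suvh2suvh9, mutated in the genes of a pair of proteins that bring RNA polymerase V to methylated DNA; and the wild type (WT). For pol2a-2 the title and the genotype label disagree, the label reading pol2a-1; groups are named here by title, and what each allele changes is not in the labels. Nothing in the labels ties a library to separate plants beyond its replicate number, and the p-values below measure the spread between these libraries only.

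The mitochondrial genome encodes a small part of the respiratory machinery: subunits of complexes I, III and IV and of ATP synthase, proteins that attach heme to cytochrome c, and part of the mitochondrial ribosome. Nuclear genes supply all the other subunits and most of the proteins that cut, splice and edit the mitochondrial transcripts. In plant mitochondria a poly(A) tail marks a transcript for decay and is not a sign of maturity as in the cytosol, so libraries made from poly(A) RNA, as these were, take up only a part of the mitochondrial transcripts. A large copy of mitochondrial DNA also lies in chromosome 2 of the nuclear genome in this species, and short reads can match both places.

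Of the 122 genes, 30 could be named: 15 from notes in the RefSeq annotation, 12 because their length equals the coding length of 1 annotated mitochondrial gene, and 3 because their length equals an exon block of nad5. They form 6 classes: complex I (9 genes, with the 3 pieces of nad5 counted separately), complex III (1), complex IV (3), ATP synthase (5), cytochrome c maturation (5) and ribosomal proteins (7). The other 92 are given by identifier only. Of these, 8 stood in class lists drawn up before the naming, but neither a note nor a length placed them here. The class counts below cover named genes only and may be incomplete.

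How much of a gene is repeated on chromosome 2 differs widely between genes, and reads from repeated sequence cannot be assigned to 1 place. In the TAIR10.1 assembly of RefSeq, 12 of the 32 coding genes of the mitochondrial genome matched chromosome 2 without a difference over their whole length, and 4 had no match. This took the best single match of the spliced coding sequence, so a gene in several exons could not count among the 12. For nad4 that match covered 34.6% of the coding bases, though all its 100-base windows occur on chromosome 2. Every 100-base window of cob (cytochrome b of complex III) and of atp1 (the alpha subunit of ATP synthase) occurs there, against 7.32% of the windows of cox2 (subunit 2 of complex IV) and 0% of those of cox1 (subunit 1), whose longest match is 37 bases. The shared windows span bases 3239693 to 3503476 of chromosome 2. A stretch of 120 coding bases of each of these 4 genes is shown 5′ to 3′ from RefSeq TAIR10.1, with the chromosome 2 copy under it, to set a copied gene beside a largely uncopied one. For cob these are MT:182739-182858, minus strand, and chr2:3450863-3450982, plus strand; for atp1, MT:68502-68621, minus strand, and chr2:3362505-3362624, plus strand; for cox2, MT:6450-6569, plus strand, and chr2:3347137-3347256, plus strand; for cox1, MT:116226-116345, minus strand. The first bases shown are those of the start codon except for cox2, where bases 187 to 306 are shown. Capitals mark bases of the copy that differ from the mitochondrial gene.
cob: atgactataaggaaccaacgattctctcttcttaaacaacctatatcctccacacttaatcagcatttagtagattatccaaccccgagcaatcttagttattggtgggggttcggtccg
cob copy: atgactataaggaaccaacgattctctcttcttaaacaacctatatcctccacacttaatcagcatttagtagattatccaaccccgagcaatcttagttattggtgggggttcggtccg
atp1: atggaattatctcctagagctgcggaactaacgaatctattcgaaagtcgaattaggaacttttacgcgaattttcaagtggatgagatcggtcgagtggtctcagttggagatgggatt
atp1 copy: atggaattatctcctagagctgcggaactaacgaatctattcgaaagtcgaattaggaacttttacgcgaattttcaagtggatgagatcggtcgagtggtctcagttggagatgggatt
cox2: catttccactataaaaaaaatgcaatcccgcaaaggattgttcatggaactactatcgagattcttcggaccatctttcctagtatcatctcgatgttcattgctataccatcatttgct
cox2 copy: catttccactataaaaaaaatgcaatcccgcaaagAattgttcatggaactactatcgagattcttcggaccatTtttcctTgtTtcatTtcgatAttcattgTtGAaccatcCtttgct
cox1: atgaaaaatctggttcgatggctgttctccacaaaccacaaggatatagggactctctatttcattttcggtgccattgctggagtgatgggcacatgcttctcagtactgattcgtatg
The cob and atp1 stretches have no difference from their copies, so a read from them cannot be assigned by sequence. In cox2 the stretch differs from its copy at 10 bases, counted from 1 at the coding start: G222A, C261T, A268T, A271T, C276T, G282A, C290T, A292G, T293A and A300C, each with the mitochondrial base first. The cox1 stretch has no match on chromosome 2; the match of 37 bases lies at the end of the gene, at chr2:3330658-3330694.

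Library totals were 11932325 to 20941920 counts in meiocytes and 11906055 to 34451852 counts in seedlings. Counts on mitochondrial genes numbered 4519 to 37755 per meiocyte library and 435 to 2307 per seedling library. The 95% Wilson interval of a library's mitochondrial share was therefore within 2.92% of its value in meiocytes and within 9.41% in seedlings, counting error only. The summed level of 12 meiocyte markers was 3974 to 4529 CPM (counts per 1000000 counts of the library) in meiocytes and 16.4 to 73.5 CPM in seedlings, none of the 12 being at 0 in a meiocyte library. Green tissue markers summed to 334 to 1839 CPM in meiocytes and 68555 to 108138 CPM in seedlings, and tapetum markers, from the anther cell layer around the meiocytes, summed to 312 to 742 CPM in meiocytes. As a check of the labels, SUVH9 had 0 to 1 counts in triple and suvh2suvh9 meiocytes, against 137 to 226 in WT meiocytes, and SUVH2 had 8.92 to 15.5 CPM, against 38.4 to 41.5 CPM in WT meiocytes. POL2A stood at 155 and 156 CPM in pol2a-2 meiocytes, 89.8 and 89.5 CPM in pol2a-1 meiocytes, 65.6 and 67.7 CPM in triple meiocytes, 148 and 188 CPM in suvh2suvh9 meiocytes, and 236 and 165 CPM in WT meiocytes. Its seedling levels were 30.6 and 65.9 CPM in pol2a-2 seedlings, 28.5 and 29.3 CPM in pol2a-1 seedlings, and 47.2 and 41.1 CPM in WT seedlings; whether a changed allele lowers its transcript is not in the labels.

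The libraries fall into sets that differ widely in the counts of some of these genes, and genotypes are compared only inside a set. In meiocytes, cob had 38.7 and 82.1 CPM in pol2a-2 and 7.21 and 9.08 CPM in pol2a-1. The triple, suvh2suvh9 and WT meiocytes held 0 to 1 counts of it per library, and a count of 0 in the WT libraries allows at most 0.143 to 0.178 CPM (3 counts). In seedlings the split followed other genotypes: cob was at 0 in every pol2a-2, pol2a-1 and WT library and at 0.0749 to 0.289 CPM in triple and suvh2suvh9. Of the 122 genes, 8 were at 0 in all libraries of the pol2a meiocyte set, 37 in the meiocyte set with WT, 33 in the triple and suvh2suvh9 seedling set and 46 in the seedling set with WT.

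The sets were also compared by how much of a gene's coding sequence chromosome 2 holds. This used the 24 named genes whose symbol is that of 1 whole coding gene. The 6 others, pieces of split genes and atp6-1, were left out. Windows cover coding bases only, and some counted features are longer. For cox3 1447 bases were counted against 798 coding, and for atp9 504 against 225. Summed over the 13 of the 24 with every window on chromosome 2, pol2a-1 meiocytes had 67.5 CPM and WT meiocytes 3.70 CPM, a ratio of 18.2. Not all 13 differed: the ratio was 3.05 for nad4, 0.998 for atp8 and 0.580 for atp9. Over the 7 genes with some windows there, pol2a-1 had 49.8 CPM and WT 58.3 CPM, a ratio of 0.855, with single ratios of 0.564 to 3.04. Over the 4 genes with no window there (nad9, ccmB, atp4 and cox1), the sums were 36.1 CPM in pol2a-1 and 43.4 CPM in WT, a ratio of 0.831. Single ratios of those 4 ran between 0.689 and 0.996. Among the pieces left out, nad2B is of a gene with all windows on chromosome 2, yet had 3.68 CPM in pol2a-1 and 3.78 CPM in WT, a ratio of 0.973. The 46 loci of chromosome 2 that RefSeq notes as copies and that the files hold summed to 118 to 676 CPM in the pol2a meiocyte set and 13.8 to 50.7 CPM in the meiocyte set with WT. The seedling sets differed outside copied genes too. The 4 genes with no window summed to 4.40 to 7.63 CPM in the seedling set with WT and 1.12 to 2.26 CPM in triple and suvh2suvh9 seedlings. The chloroplast share of counts was 2.11% to 2.42% in the seedling set with WT and 0.0215% to 0.0443% in the other. Across sets, genotype and counting cannot be told apart, and the treatment of reads with several matches is not given in the sources used.

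**Figure D1:**
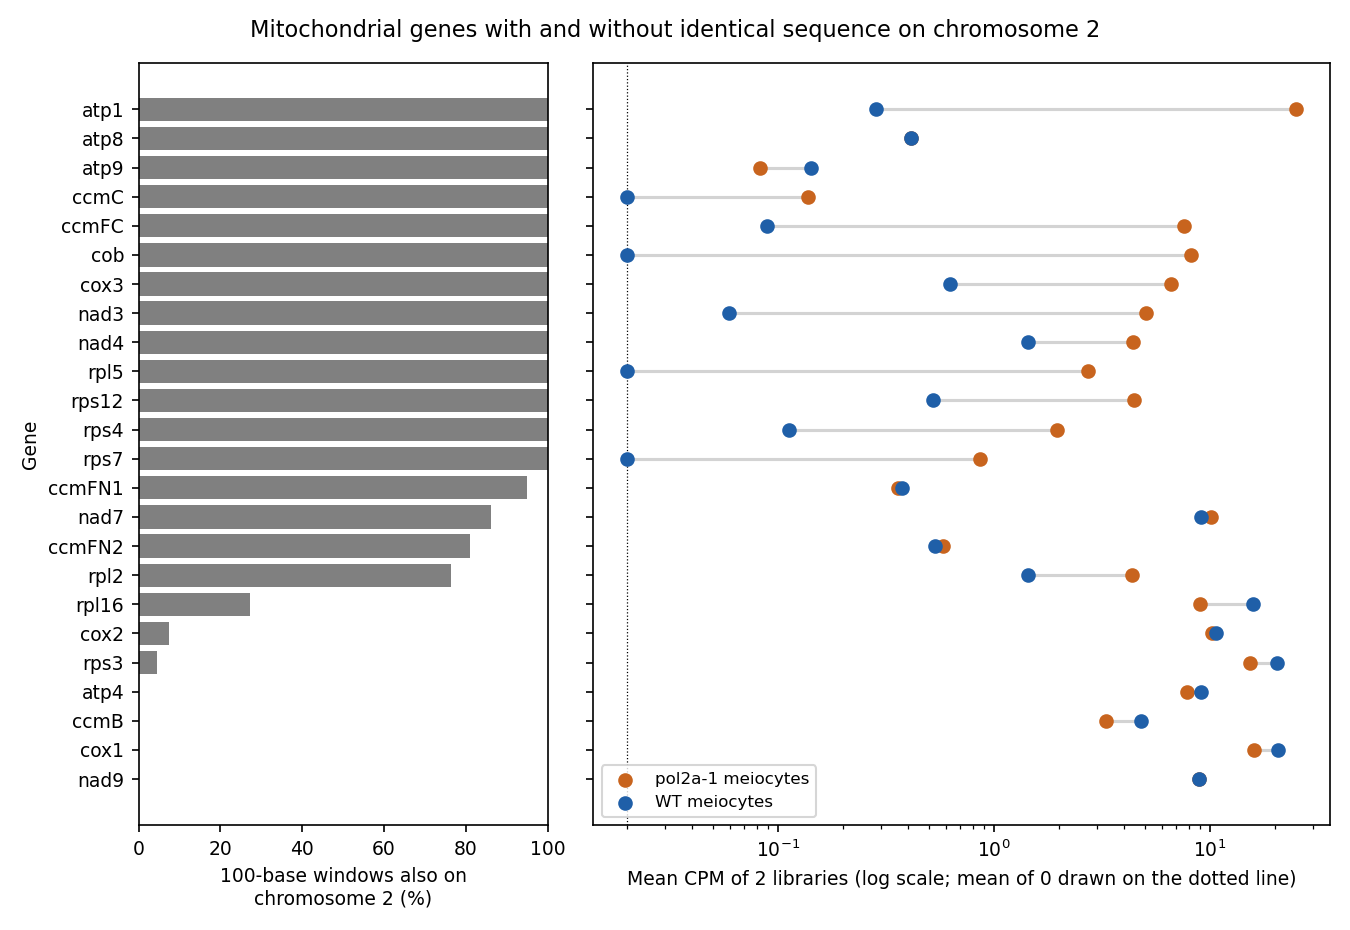
Left, the share of 100-base windows of each named mitochondrial gene that also occur on chromosome 2 (%); right, its mean level in pol2a-1 and WT meiocytes (CPM, log scale, mean of 2 libraries each; a mean of 0 sits on the dotted line). The points of the 4 genes without a window lie close together, at ratios of 0.689 to 0.996. Of the 13 genes with all coding windows on chromosome 2, 10 (all but nad4, atp8 and atp9) were at 0 in both WT libraries or more than 5 times higher in pol2a-1. Among the 10, ccmC had only 5 counts over both pol2a-1 libraries.

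In the pol2a meiocyte set, the mitochondrial share of all counts was 0.196% and 0.277% in the 2 pol2a-2 libraries, against 0.0733% and 0.0620% in pol2a-1. Both pol2a-2 libraries stood above both pol2a-1 libraries, with means of 0.237 ± 0.0570% in pol2a-2 and 0.0677 ± 0.00796% in pol2a-1 (SD, n = 2 each) and a ratio of 3.5. In the meiocyte set with WT, the share was 0.0786% and 0.0684% in triple, 0.0231% and 0.0596% in suvh2suvh9, and 0.0532% and 0.0430% in WT. The triple libraries lay above the WT libraries (ratio 1.53) and above the suvh2suvh9 libraries (ratio 1.78), while suvh2suvh9, whose 2 libraries lay far apart, overlapped WT (ratio 0.859). These ratios rest on single suvh2suvh9 libraries: without replicate 1 they were 1.23 for triple against suvh2suvh9 and 1.24 for suvh2suvh9 against WT, and without replicate 2 they were 3.19 and 0.479. Over the 4 genes with no window on chromosome 2 alone, the sums were 82.3 and 79.8 CPM in triple, 16.8 and 22.4 CPM in suvh2suvh9, and 52.3 and 34.6 CPM in WT. There no groups overlapped, and the ratios were 1.87 for triple against WT, 4.13 for triple against suvh2suvh9 and 0.451 for suvh2suvh9 against WT. In bulk RNA, fewer cells of a type and less mitochondrial RNA per cell cannot be told apart. With 2 libraries a group, an exact permutation test (two-sided) cannot give a p below 0.333, which was its value for each of the 3 comparisons without overlap.

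In every seedling library the mitochondrial share was below that of every meiocyte library, a comparison that crosses library sets. The share was 0.00696% and 0.00637% in pol2a-2, 0.00666% and 0.00801% in pol2a-1, and 0.00670% and 0.00636% in WT seedlings. These 3 groups overlapped, with ratios to WT of 1.02 for pol2a-2 and 1.12 for pol2a-1. The other seedling set had 0.00157% and 0.00276% in triple and 0.00175% and 0.00225% in suvh2suvh9, also overlapping (ratio 1.08). WT meiocytes had 7.37 times the share of WT seedlings (0.0481 ± 0.00717% in meiocytes and 0.00653 ± 0.000240% in seedlings; SD, n = 2 each; exact permutation p = 0.333, the smallest possible).

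**Figure D2:**
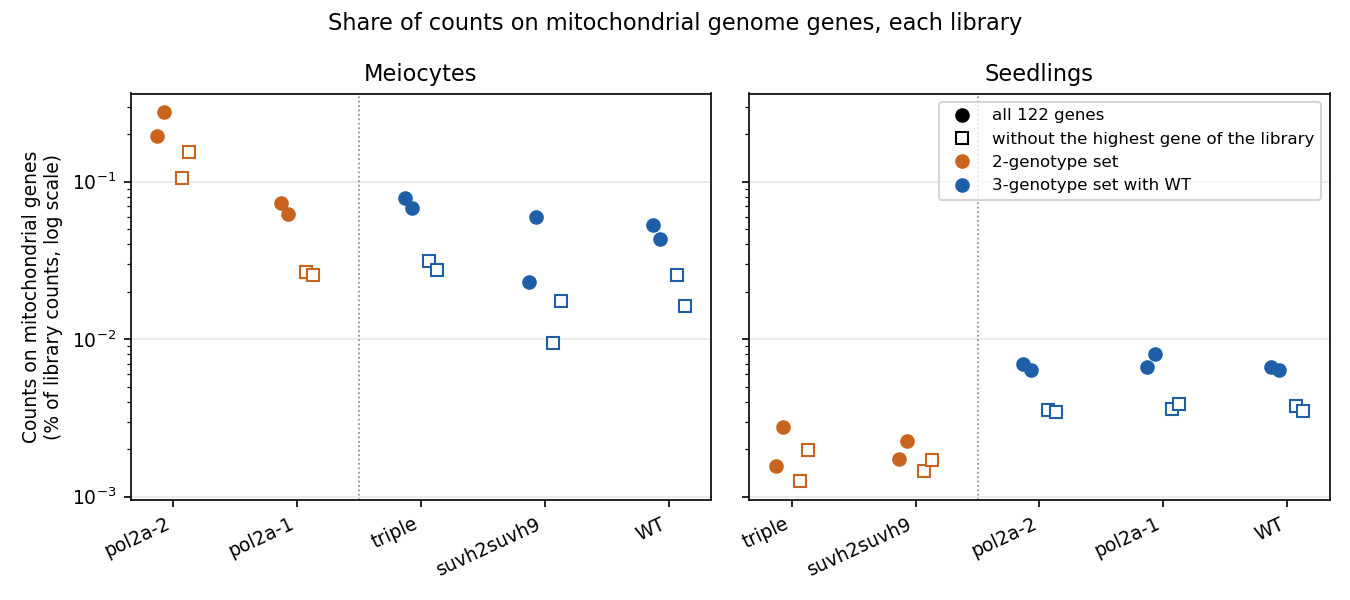
Share of library counts on the mitochondrial genes (%, log scale) in each meiocyte library (left) and seedling library (right), for all 122 genes (circles) and without the highest gene of the library (squares); dotted lines part the sets. The pol2a-2 meiocytes, at 0.196% and 0.277%, stand above the pol2a-1 meiocytes of their set, and every meiocyte library stands above every seedling library. Counting may differ across the dotted lines and between the panels.

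A single gene supplied much of the signal. ATMG00030, a gene of 324 bases that is not named here, took 43.9% to 70.9% of the mitochondrial counts in meiocytes, 43.9% to 51.8% in the seedling set with WT and 16.2% to 28.2% in triple and suvh2suvh9 seedlings. Its level was 906 and 1217 CPM in pol2a-2 meiocytes, 465 and 366 CPM in pol2a-1, 475 and 407 CPM in triple, 136 and 422 CPM in suvh2suvh9, and 278 and 268 CPM in WT meiocytes. Seedlings had 34.0 and 29.4 CPM in pol2a-2, 30.6 and 41.5 CPM in pol2a-1, 29.4 and 28.7 CPM in WT, 3.18 and 7.79 CPM in triple, and 2.83 and 5.32 CPM in suvh2suvh9. The gene was first in all 20 libraries, and the 2 suvh2suvh9 meiocyte libraries differed more from each other than the group did from WT. Without the highest gene, the share was 0.106% and 0.155% in pol2a-2 meiocytes and 0.0268% and 0.0254% in pol2a-1 meiocytes, again without overlap.

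Ranked per length, as CPM per kilobase and leaving out ATMG00665, a nad5 piece of 22 bases, ATMG00030 led every set: its mean was 2280 in the pol2a meiocytes, 1022 in the meiocyte set with WT, 99.6 in the seedling set with WT and 14.7 in the triple and suvh2suvh9 seedlings. Next in the pol2a meiocytes came rpl16 (70.1, a protein of the large ribosomal subunit), ATMG00650 (56.8) and ATMG00660 (56.5) per kilobase. In the meiocyte set with WT the next were ATMG00660 (61.6), rpl16 (25.4) and ATMG01370 (21.2) per kilobase. These set means mix groups that differ. Within each of the 6 libraries of the set with WT, ATMG00660 stood above rpl16. In the pol2a set rpl16 came next after ATMG00030 in both pol2a-2 libraries, but in pol2a-1 ATMG00660 (35.4 and 34.7) and ATMG01370 (24.1 and 21.8) stood above rpl16 (17.6 and 15.6 CPM per kilobase). Seedlings had ATMG01370 and then ATMG00660 after ATMG00030 in both sets, at 11.9 and 6.22 CPM per kilobase with WT and at 3.14 and 1.72 in triple and suvh2suvh9; there the ranges of those 3 genes did not overlap. In raw CPM, which favours long genes, the 6 highest of the pol2a meiocytes were ATMG00030, atp1 (62.2), cox1 (55.9), rps3 (51.3), rpl16 (37.9) and nad7 (34.7). The meiocyte set with WT had ATMG00030, ATMG00660 (27.7), cox1 (23.6), rps3 (17.4), rpl16 (13.7) and cox2 (11.2) CPM. In the seedling set with WT, ATMG00030 was followed by ATMG01370 (4.01), rps3 (3.07), ATMG00660 (2.80), ATMG00670 (2.29) and cox1 (2.05), and in the triple and suvh2suvh9 seedlings by ATMG01370 (1.06), ATMG00670 (0.995), atp1 (0.955), ATMG00660 (0.775) and rps3 (0.715).

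The likeness of the order of the 122 genes varied within sets and between them. Spearman's rho across the 122 genes, which are not independent replicates, was 0.927 for pol2a-2 against pol2a-1 meiocytes, 0.896 for triple against WT meiocytes and 0.867 for suvh2suvh9 against WT meiocytes. Between sets of the same tissue it was 0.711 for pol2a-1 against WT meiocytes, and between tissues it was 0.810 for WT meiocytes against WT seedlings. Among seedlings it was 0.891 for pol2a-2 against WT, 0.812 for pol2a-1 against WT and 0.836 for triple against suvh2suvh9, and between the seedling sets it was 0.645 for suvh2suvh9 against WT. Across both tissue and set, pol2a-1 meiocytes against suvh2suvh9 seedlings gave 0.829. Genes at 0 in both groups share ranks in these values.

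**Figure D3:**
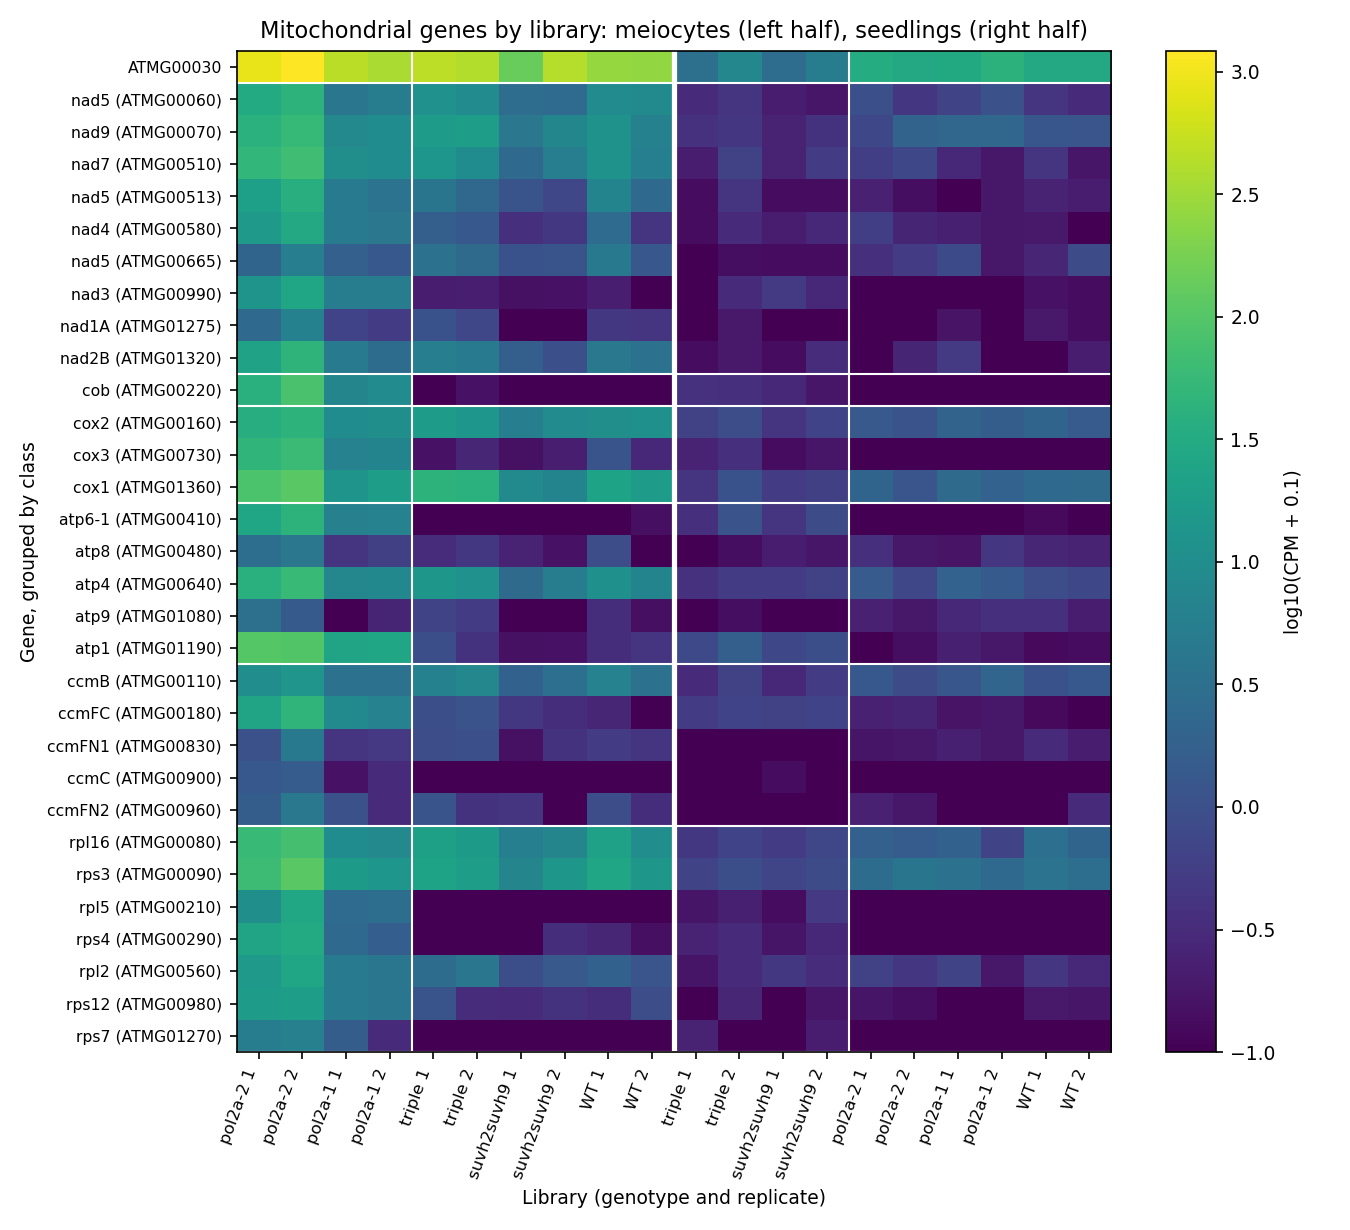
Level of ATMG00030 and the 30 named genes in each library, as log10(CPM + 0.1), with meiocytes on the left, seedlings on the right, and white lines between sets and classes. The pol2a-2 meiocyte columns are the brightest in nearly every row, though counting may differ between sets. Genes whose whole coding sequence is copied on chromosome 2, such as cob, cox3, atp1 and rpl5, are dark in the triple, suvh2suvh9 and WT meiocytes.

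The comparison of pol2a-2 with pol2a-1 meiocytes, both in the set where cob had counts, asked whether the 2 titled groups differ. Mitochondrial genes of every class except cytochrome c maturation were called higher in pol2a-2. Of the 122 genes, 75 passed the filter on low counts; 74 of the 75 had a positive log2 fold change, with a median of 2.29 against 0.028 over the nuclear features. In edgeR's quasi-likelihood test with Benjamini-Hochberg adjustment over all features, 17 were called higher (adjusted p under 0.05) and none lower, beside 0.358% of all features called higher and 0.156% called lower. At an unadjusted p under 0.05, 44 were higher and 0 lower (8.18% and 6.1% of all features), and DESeq2 called 33 higher and 0 lower (1.91% and 0.735% of all features). In 68 of the 75 both pol2a-2 libraries lay above both pol2a-1 libraries, beside 27.2% of all features higher and 20.1% lower in this way. The filter matters here: 56 of the 75 would have reached its level without the pol2a-2 libraries, and genes that pass only through pol2a-2 had to be higher there. Of those 56, 55 were positive, with a median log2 of 2.23, and 51 lay higher without overlap; they include all 17 called genes. All 17 called genes stood at 1.54 CPM or more in both pol2a-1 libraries.

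All 9 features of complex I, which takes electrons from NADH, were higher by fold change and 5 were called. The 9 include 3 pieces of nad5, and the 5 include ATMG00060 and ATMG00513 of that gene. The summed level of the 9 was 198 and 314 CPM in pol2a-2 and 44.3 and 41.1 CPM in pol2a-1. The nad2B piece of the trans-spliced nad2 had 22.5 and 45.9 CPM in pol2a-2, against 4.66 and 2.7 CPM in pol2a-1, a log2 fold change of 3.13 ± 0.46 (SE; adjusted p = 0.00869, edgeR). The nad5 piece ATMG00060 had 31.8 and 43.7 CPM in pol2a-2, against 3.94 and 5.06 CPM in pol2a-1 (2.99 ± 0.32; adjusted p = 0.00113, edgeR). For both, the lower pol2a-2 library was several times the higher pol2a-1 library. The other called genes of the complex were nad5 ATMG00513 (log2 2.68), nad7 (2.48) and nad9 (2.33); nad7 was the highest of the class, with 51.2 and 67.6 CPM in pol2a-2 and 10.5 and 9.63 CPM in pol2a-1.

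The only complex III gene, cob, rose by a log2 of 2.82 ± 0.43 (adjusted p = 0.0185, edgeR; its CPM values are given above). All 3 genes of complex IV, the oxidase that reduces oxygen, were called. For cox3 the levels were 47.6 and 61.0 CPM in pol2a-2 and 6.33 and 6.94 CPM in pol2a-1 (log2 2.95 ± 0.47; adjusted p = 0.0129, edgeR). For cox1, the highest of the class and with no window on chromosome 2, they were 83.8 and 108 CPM in pol2a-2 and 12.8 and 19.3 CPM in pol2a-1 (log2 2.5 ± 0.27; adjusted p = 0.00120, edgeR). The third gene, cox2, had 34.7 and 43.2 CPM in pol2a-2 and 9.60 and 10.7 CPM in pol2a-1 (log2 1.85). In none of the 3 did the groups overlap.

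Of the 5 ATP synthase genes, 3 were called: atp4 (log2 2.52), atp6-1 (2.39) and atp1 (1.89 ± 0.29; adjusted p = 0.0113, edgeR). The alpha subunit gene atp1 was the highest of the class at 102.6 and 96.0 CPM in pol2a-2 and 24.1 and 26 CPM in pol2a-1. The other members of the class, atp8 and atp9, passed the filter only through the pol2a-2 libraries. Of the 7 ribosomal protein genes, 3 were called, and rps7 passed the filter only through pol2a-2: rps4, rpl16 (log2 2.81) and rps3 (log2 2.42). The largest called rise of any mitochondrial gene was that of rps4, with 24.5 and 31.4 CPM in pol2a-2 and 2.39 and 1.54 CPM in pol2a-1 (log2 3.74 ± 0.61; adjusted p = 0.0191, edgeR). The class was led by rps3, at 64.0 and 110.3 CPM in pol2a-2 and 16.6 and 14.1 CPM in pol2a-1.

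None of the 5 cytochrome c maturation genes was called. One of them, ccmC, passed the filter only through pol2a-2; the other 4 had positive fold changes, with a median log2 of 2.17, and the lowest adjusted p was 0.0890 (edgeR). Their highest member ccmFC had 24.5 and 46.8 CPM in pol2a-2 and 8.82 and 6.28 CPM in pol2a-1. Among the 92 genes without a name, 45 were tested and 2 called higher, ATMG00650 (log2 2.55) and ATMG01120 (2.46). Both had been listed under complex I before the naming, but no note or length placed them there. The abundant ATMG00030 was not called: its log2 fold change was 1.27 ± 0.38 (adjusted p = 0.211, edgeR), though DESeq2 gave 1.29 with an adjusted p of 0.0269, and it passed in edgeR without suvh2suvh9 replicate 1 (0.00848) or replicate 2 (0.00885), a library of neither group compared. Lower fold changes were found for ATMG00660 (log2 1.07; 30.5 and 39.6 CPM in pol2a-2, 15.9 and 15.6 CPM in pol2a-1) and for ATMG01370 (log2 0.45; 12.2 and 10.3 CPM in pol2a-2, 8.10 and 7.32 CPM in pol2a-1). The 1 gene with a negative value was ATMG00150, at a log2 of -0.96, whose groups overlapped.

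Genes with and without windows on chromosome 2 both had positive fold changes here. The 4 named genes with no window on chromosome 2 had log2 fold changes of 2.52 (atp4), 2.5 (cox1), 2.33 (nad9) and 1.72 (ccmB, not called), and their summed level was 172 and 232 CPM in pol2a-2 and 32.4 and 39.9 CPM in pol2a-1. The chromosome 2 loci noted as copies had 531 and 676 CPM in pol2a-2 and 128 and 118 CPM in pol2a-1. Other values moved too. The chloroplast share was 0.0751% and 0.0712% in pol2a-2 and 0.0250% and 0.0238% in pol2a-1 meiocytes. The green tissue markers summed to 860 to 871 CPM in pol2a-2 and 651 to 666 CPM in pol2a-1, with none of the 11 at 0, and the tapetum markers to 338 to 646 CPM in pol2a-2, with 1 of 17 at 0, and 327 to 438 CPM in pol2a-1, with 3 of 17 at 0. Library totals were 11932325 and 13623199 counts in pol2a-2 and 18019490 and 18165353 counts in pol2a-1. The part of these in the result was not tested.

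The number of calls rests on single libraries. Only 3 genes were called without pol2a-1 replicate 1 and 2 without replicate 2, where the lone library is assumed to vary like the other groups; without pol2a-2 replicate 2 there were 8. Through all 16 alternatives cox1 and the nad5 piece ATMG00060 kept their calls, with adjusted p-values of at most 0.0279 and 0.0286 (edgeR or DESeq2).

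**Figure D4:**
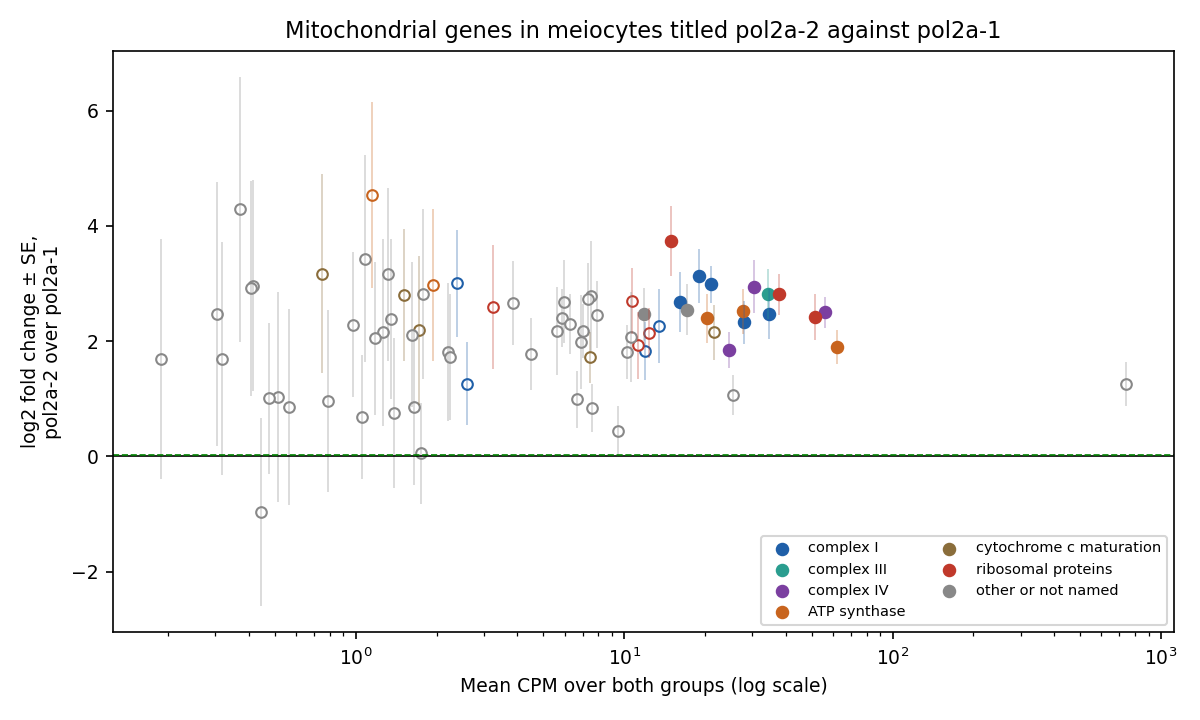
Log2 fold change (± SE) of the 75 tested mitochondrial genes between pol2a-2 and pol2a-1 meiocytes against mean level (CPM, log scale); filled points were called, colours give the class, and the green dashed line is the nuclear median of 0.028. All but 1 point lie above 0, the 17 filled points lie between 1.85 and 3.74, and ATMG00030 at the far right lies at 1.27.

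In seedlings the same comparison gave no called gene. Of the 122 genes 32 were tested there; 13 had a positive and 18 a negative fold change, with a median log2 of -0.19, beside 0.233% of all features called higher and 0.152% called lower (edgeR). By unadjusted p under 0.05 there were 0 mitochondrial genes (5.14% of all features higher and 6.07% lower), and DESeq2 called 0 (0.713% and 0.579%). Whether the tissues differ was tested as an interaction, chosen after the data were seen: 5 of 78 genes passed as more positive in meiocytes and 0 as less, beside 0.258% and 0.254% of all features (edgeR). DESeq2 called 11 and 0, beside 1.36% and 1.06%. The 5 were the nad5 piece ATMG00060 (a difference of log2 fold changes of 3.37 ± 0.62; adjusted p = 0.0193), atp4 (3.27), cox1 (3.07 ± 0.51; adjusted p = 0.00924), nad9 (2.99) and cox2 (2.47). For cox1 the seedling levels were 1.98 and 1.1 CPM in pol2a-2 and 2.52 and 1.85 CPM in pol2a-1. Each side of the contrast lies inside 1 library set, but the sets differ in the counts of copied genes. In every pol2a seedling library cob, cox3, rpl5 and rps4 were at 0, so their seedling fold change carries no information. No gene passed when only the groups compared were fitted (adjusted p 0.0945 for cox1 and 0.151 for ATMG00060) or without pol2a-1 meiocyte replicate 1, and 1 passed without pol2a-1 meiocyte replicate 2, pol2a-1 seedling replicate 1, pol2a-1 seedling replicate 2 or pol2a-2 seedling replicate 2.

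In the meiocyte set with WT, no mitochondrial gene was called between suvh2suvh9 and WT, and most fold changes were negative. Of the 75 tested, 20 were positive and 45 negative, with a median log2 of -0.55, or -0.71 with genes at 0 in 1 group placed at a bound of 3 counts; 23 genes lay lower without overlap and 3 higher, beside 11.3% and 14.2% of all features. Of the 75, 44 would have reached the filter level without the pol2a libraries. The rest were tested here, and in the triple comparisons below, only through those libraries. The counts and medians include them. The background was 0.0% of all features called higher and 0.00471% called lower (edgeR). At an unadjusted p under 0.05, 18 were lower and 2 higher (2.2% and 3.0% of all features), and DESeq2 called 4 lower and 0 higher (0.552% and 0.344%). Values were 8.47 and 6.77 CPM in suvh2suvh9 against 23.1 and 18.2 CPM in WT for cox1 (log2 -1.44; adjusted p = 0.115, edgeR), and 2.76 and 2.61 CPM in suvh2suvh9 against 9.25 and 8.60 CPM in WT for the nad5 piece ATMG00060 (log2 -1.74; adjusted p = 0.115, edgeR). ATMG00030 had a log2 of 0.029 with overlapping groups, and its sign turned without suvh2suvh9 replicate 2 (-1.0). The median rests on single libraries: it was -0.99 without suvh2suvh9 replicate 2, -0.13 without WT replicate 2, and 0 without suvh2suvh9 replicate 1 or without WT replicate 1. Tapetum markers summed to 432 to 742 CPM in suvh2suvh9 (3 to 5 of 17 at 0) and 312 to 320 CPM in WT (4 to 5 of 17 at 0), without overlap, and green tissue markers to 616 to 738 CPM in suvh2suvh9 and 334 to 707 CPM in WT, none of the 11 at 0; their part was not tested.

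No mitochondrial gene was called between triple and WT meiocytes either. Of the 75 tested, 46 were positive and 19 negative, with a median log2 of 0.30 (0.44 with the bounds). Without the pol2a libraries, 44 of the 75 would have reached the filter level. Of all features, 0.0424% were called higher and 0.0189% lower (edgeR). At an unadjusted p under 0.05, 6 were higher and 1 lower (9.15% and 5.76% of all features), so the 6 of 75 lie near the background, and DESeq2 called 2 higher and 0 lower (2.09% and 0.476%). For cox1, at 44.1 and 41.2 CPM in triple and 23.1 and 18.2 CPM in WT, the log2 was 0.92 (adjusted p = 0.180, edgeR). The median was 0.61 without WT replicate 1 and 0 without triple replicate 1. Both marker lists were higher in triple without overlap, the green tissue markers at 1045 to 1839 CPM in triple and 334 to 707 CPM in WT (none of the 11 at 0), and the tapetum markers at 575 to 681 CPM in triple (1 to 2 of 17 at 0) and 312 to 320 CPM in WT (4 to 5 of 17 at 0). Their part in the result was not tested.

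Between triple and suvh2suvh9 meiocytes, 1 gene passed. This was cox1, with 44.1 and 41.2 CPM in triple against 8.47 and 6.77 CPM in suvh2suvh9, a log2 fold change of 2.36 ± 0.27 (adjusted p = 0.0101, edgeR), beside 0.0283% of all features called higher and 0.00943% called lower. All 9 complex I features, among them 3 pieces of nad5, were positive without overlap. Their median log2 was 1.64, with a lowest adjusted p of 0.0865 for nad5 ATMG00060 (edgeR). That piece had 11.7 and 9.33 CPM in triple and 2.76 and 2.61 CPM in suvh2suvh9. Over the 75 tested genes 50 were positive and 14 negative, and the median log2 was 0.82 (1.02 with the bounds). In 34 of the 75 the values lay higher without overlap and in 1 lower, beside 33.1% of all features higher and 13.2% lower. Here too, 44 of the 75 would have reached the filter level without the pol2a libraries. By unadjusted p under 0.05, 23 were higher and 0 lower (6.07% and 3.59% of all features), and DESeq2 called 9 higher and 0 lower (0.698% and 0.099%). The call of cox1 ended without suvh2suvh9 replicate 2 (adjusted p = 0.0657) and without triple replicate 1 (adjusted p = 0.0903), and also when only the groups compared were fitted (adjusted p = 0.165). The median was 0.075 without suvh2suvh9 replicate 1, 0.15 without triple replicate 1 and 1.3 without suvh2suvh9 replicate 2. The tissue difference of this comparison, also chosen after the data were seen, gave 0 of 78 genes past the threshold, with 9 more positive in meiocytes and 0 less at an unadjusted p under 0.05 (6.85% and 3.81% of all features) and 0 by DESeq2 (1.27% and 0.496%), beside 0.0491% and 0.0287% of all features past the threshold (edgeR). Green tissue markers summed to 1045 to 1839 CPM in triple and 616 to 738 CPM in suvh2suvh9, none of the 11 at 0, and tapetum markers to 575 to 681 CPM in triple (1 to 2 of 17 at 0) and 432 to 742 CPM in suvh2suvh9 (3 to 5 of 17 at 0); their part was not tested.

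No mitochondrial gene was called in the other seedling comparisons. For pol2a-2 against WT, 12 of the 32 tested were positive and 20 negative (median log2 -0.054; 1.69% of all features called higher and 0.937% lower). By unadjusted p under 0.05, 1 was higher and 1 lower, beside 11.2% and 10.2% of all features. For pol2a-1 against WT, 19 were positive and 13 negative (median 0.17; 0.0224% of all features called higher and 0.00448% lower), and 1 was higher and 2 lower by unadjusted p under 0.05, beside 8.28% and 7.07%. The 2 pol2a-1 seedling libraries differed in tapetum markers, with 11.1 CPM in replicate 1 (8 of 17 at 0) and 62.4 CPM in replicate 2 (0 of 17 at 0). WT seedlings had 15.2 and 15.0 CPM of them, and pol2a-2 seedlings 23.6 and 19.9 CPM. The part of this in the comparisons with pol2a-1 seedlings was not tested. For triple against suvh2suvh9 the median was 0.075 (0.193% of all features called higher and 0.0538% lower), and 0 passed by unadjusted p under 0.05, beside 6.61% and 5.04%. These tests were made with edgeR. DESeq2 called 0 in each, beside 2.83% higher and 2.06% lower of all features for pol2a-2 against WT, 0.278% and 0.35% for pol2a-1 against WT, and 1.05% and 0.776% for triple against suvh2suvh9. Low counts limit them: 13 genes in the set with WT and 8 in the other set had 10 or more counts in every library. A difference in the others was not detectable at this depth unless large.

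Between WT meiocytes and WT seedlings, the share of mitochondrial genes called higher was close to that of all features, and the share called lower was below that of all features. Of 78 genes tested in the fit of all libraries, 29 were called higher (37.2%) and 1 lower (1.28%), beside 35.2% and 41.7% of all features (edgeR). The filter used all groups, so some of the 78 were tested only through other genotypes. In 21 of the 78 a WT group was at 0, and 13 of the 21 had 3 counts or fewer in the other WT group. Those 13 could hardly be called in either direction, and the shares of the 78 include them. The median log2 was 1.79, or 1.93 with genes at 0 in 1 group at their bound, against -0.21 over the nuclear features; 45 genes lay higher without overlap and 1 lower, beside 43.5% and 44.1% of all features. This comparison crosses library sets as well as tissues, so differences in counting cannot be told apart from it. By class, 7 of 9 complex I features were called higher, 3 of 3 of complex IV, 4 of 7 ribosomal protein genes, 2 of 5 ATP synthase genes, 1 of 5 cytochrome c maturation genes and 12 of the 48 tested genes without a name. The 7 include all 3 pieces of nad5.

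The complex I gene nad7 had 12.5 and 5.63 CPM in WT meiocytes and 0.319 and 0.0746 CPM in WT seedlings (log2 5.06 ± 0.66, and 4.44 to 6.50 over the alternatives; adjusted p = 2.5e-06, edgeR). For nad2B the levels were 4.27 and 3.29 CPM in meiocytes and 0 and 0.112 CPM in seedlings, where it had 3 counts in all, which gives a ratio of 76.2 (95% counting interval 25.5 to 374; adjusted p = 4.5e-05, edgeR). Both are genes with most of their sequence on chromosome 2. Of the genes at 0 in both WT seedling libraries, ATMG01020 (0.296 and 0.860 CPM in meiocytes) was at least 12.4-fold higher and cox3 (1.07 and 0.191 CPM) at least 11.9-fold higher in meiocytes, against 3 counts over the seedling group. The 4 genes with no window on chromosome 2 were all called: atp4 (log2 3.26), cox1 (2.76 ± 0.34; 23.1 and 18.2 CPM in meiocytes against 2.38 and 2.5 CPM in seedlings; adjusted p = 1.3e-06, edgeR), nad9 (2.67) and ccmB (1.78). ATMG00030 had a log2 of 2.92 ± 0.45 (adjusted p = 1.7e-05, edgeR). The 1 lower gene, ATMG01410, was at 0 in both meiocyte libraries and at 0.406 and 0.224 CPM in seedlings, at least 4.11-fold lower in meiocytes (adjusted p = 0.0325, edgeR). Its call ended without WT meiocyte replicate 1, WT meiocyte replicate 2 or WT seedling replicate 1, where no gene was called lower.

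**Figure D5:**
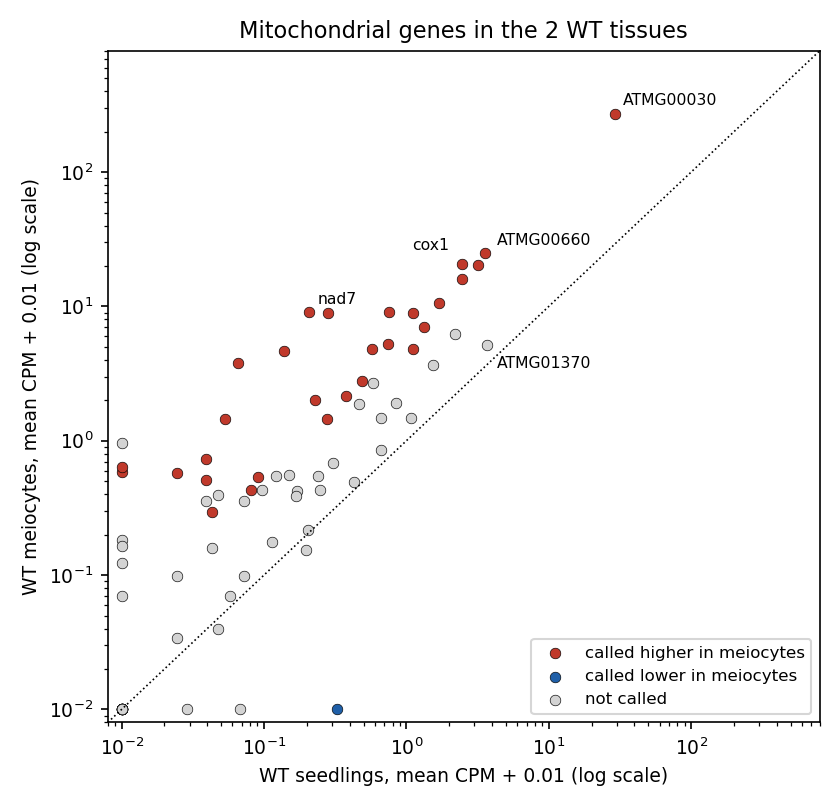
Mean level of the mitochondrial genes in WT meiocytes (vertical) against WT seedlings (horizontal), as CPM + 0.01 on log scales, with the line of equality dotted; red points were called higher in meiocytes, the blue point lower and grey points not called. ATMG00030 stands apart at the top in both tissues, and ATMG01370 lies near the line.

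Nuclear genes that work with the mitochondrial genome were counted from 3 lists chosen with earlier results of these data known. They hold 30 genes for nuclear subunits of the respiratory chain, 30 for upkeep of mitochondrial RNA and DNA, and 14 listed under alternative respiration. That name refers to pathways that pass electrons around the main complexes. Whether every listed gene, such as AT2G21640 and AT5G09570, acts in them was not established here. Between pol2a-2 and pol2a-1 meiocytes, none of the 30 respiration genes was called and 2 of 30 were positive, with a median log2 of -0.28 and a lowest adjusted p of 0.247 (edgeR). Of the upkeep genes 1 was called lower, beside 0.156% of all features: RPF1, a pentatricopeptide protein needed for 5′ processing of nad4 mRNA, had 0 and 1.1 CPM in pol2a-2 and 8.66 and 8.48 CPM in pol2a-1 (log2 -3.96 ± 0.76; adjusted p = 0.0430, edgeR). Its call ended without pol2a-1 replicate 1 (adjusted p = 0.200) and without pol2a-1 replicate 2 (adjusted p = 0.170). The log2 was -3.01 without pol2a-2 replicate 1 and -10.27 without pol2a-2 replicate 2, which leaves the library at 0, so that the fitted value is no bound. The low RPF1 level was not seen in seedlings of the same title. There RPF1 had 4.51 and 2.96 CPM in pol2a-2, 5.97 and 6.13 CPM in pol2a-1, and 5.51 and 3.73 CPM in WT. Between the same meiocyte groups, none of the 11 tested genes of alternative respiration was called (lowest adjusted p 0.248, edgeR). In the other meiocyte comparisons, no gene of the 3 lists had an adjusted p below 0.190 (edgeR).

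In pol2a-2 seedlings, 2 of 10 tested genes of the alternative respiration list were called higher than in WT, beside 1.69% of all features called higher and 0.937% called lower. The list as a whole did not rise: 4 of the 10 were positive, with a median log2 of -0.042. AOX1C, an alternative oxidase, had 4.44 and 5.72 CPM in pol2a-2 and 0.41 and 0.60 CPM in WT (log2 3.26 ± 0.40; adjusted p = 0.00404, edgeR). AT2G21640 had 15.3 and 13.9 CPM in pol2a-2 and 3.05 and 2.95 CPM in WT (log2 2.20 ± 0.23; adjusted p = 0.00203, edgeR), and was also called against pol2a-1 seedlings (6.03 and 4.45 CPM; log2 1.37; adjusted p = 0.0477, edgeR). Of the 30 upkeep genes, 2 were called higher beside the same background. WHY2, a protein that binds mitochondrial DNA, had 41.6 and 34.5 CPM in pol2a-2, against 19.6 and 23 CPM in WT (log2 0.76; adjusted p = 0.0443, edgeR). AT1G30680, which encodes the organellar helicase and primase Twinkle, had 55.0 and 68.2 CPM in pol2a-2, against 37.5 and 39.0 CPM in WT (log2 0.61; adjusted p = 0.0443, edgeR). The call of AOX1C ended without WT replicate 1 (adjusted p = 0.0765). The upkeep calls were past the threshold in 5 (WHY2) and 6 (AT1G30680) of 16 alternatives, with adjusted p-values up to 0.326 and 0.304, both without WT replicate 1, and in 1 and 2 of the 10 fits that left out a library. The call of AT2G21640 against pol2a-1 was past it in 7 of 16, with an adjusted p up to 0.281, without pol2a-1 replicate 2.

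Between WT meiocytes and WT seedlings, 18 of the 30 respiration genes were called higher and 6 lower, 19 and 3 of the 30 upkeep genes, and 7 and 3 of the 12 tested genes of alternative respiration, beside 35.2% and 41.7% of all features. SDH1-1, a subunit of complex II, had 717 and 775 CPM in meiocytes and 92.8 and 91.9 CPM in seedlings (log2 2.71). CYTC-2, cytochrome c, had a log2 of 2.64, RIP1, an organelle RNA editing factor, 2.33, and AT1G74350 2.74. NDA1, an alternative NADH dehydrogenase of the inner membrane, had 0.949 and 0.143 CPM in meiocytes and 120.2 and 119.7 CPM in seedlings (log2 -8.17, and -9.88 to -7.37 over the alternatives). AT5G09570 had 33.7 and 12.4 CPM in meiocytes and 0 and 0.261 CPM in seedlings (log2 7.21). The log2 was 6.10 without WT seedling replicate 1 and 11.66 without WT seedling replicate 2, which leaves the library at 0, so that the fitted value is no bound.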

How the data were processed

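Polyadenylated RNA was sequenced with the TruSeq RNA kit version 2, which does not record strand, per the labels. The authors deposited whole-number counts for each gene and transposable element, not normalized. Per the submitters' processing notes, STAR 2.7.9a, cutadapt 3.4, DESeq2 1.30.1 and featureCounts 2.0.0 were used with the TAIR10 build. How reads with several matches were counted is not given in the sources used. Reads of a gene and of an antisense partner cannot be told apart.

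Members were matched by identifier. The members and gene lists were chosen with earlier results of these data known. In R 4.3.3, edgeR 4.0.16 (filterByExpr with minimum count 10, TMM, quasi-likelihood F test, two-sided, Benjamini-Hochberg over all features, called at adjusted p under 0.05) was fitted to the 10 libraries of a tissue, and to all 20 for tissue contrasts; the script was tested on simulated data. DESeq2 1.42.0, other scaling, no filter, a replicate block, only the groups compared and leaving out each library were alternatives. Replicate numbers come from the titles; same-numbered libraries did not deviate together (2 of 10 group pairs over 0.1 in each tissue), so no block was used. Genes were named by rank of CPM, largest called changes and class leaders; members behind small counts, and genes with no window on chromosome 2, were named after their values were seen. CPM uses the total of the deposited counts over all features. Copies were searched in RefSeq TAIR10.1 with 100-base windows and blastn 2.17.0. Its mitochondrial sequence differs from that of TAIR10, and the files hold no coordinates. Against 0, folds use 3 counts over the group.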

Additional observations from a re-analysis of the deposited data

Results flagged for a closer look

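The difference between pol2a-2 and pol2a-1 was larger in meiocytes than in seedlings for 5 mitochondrial genes by the interaction test of edgeR (nad5 ATMG00060, atp4, cox1, nad9 and cox2), with differences of log2 fold changes between 2.47 and 3.37. Levels differed between the tissues: cox1 had 12.8 to 108 CPM in the 4 meiocyte libraries and 1.1 to 2.52 CPM in the 4 seedling libraries. The contrast was chosen after the data were seen, and it joins library sets that differ in the counts of copied genes. The count rests on few libraries and ran between 0 and 6 when 1 library was left out; with only the groups compared in the fit it was 0.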

How the results depend on the processing

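No called direction reversed. Among values that were not called, the log2 of ATMG00030 for suvh2suvh9 against WT meiocytes was -0.044 with a replicate block and ran from -1.0 to 0.63 when 1 library was left out, and that for triple against suvh2suvh9 from -0.062 to 1.56; that of the nad5 piece ATMG00060 for triple against WT ran from -0.083 to 0.27. Leaving out 1 library also moved the ratio of mitochondrial shares, to 0.479 to 1.24 for suvh2suvh9 against WT and 1.23 to 3.19 for triple against suvh2suvh9 meiocytes, and in seedlings to 0.976 to 1.07 for pol2a-2 against WT, 0.832 to 1.00 for pol2a-2 against pol2a-1 and 0.785 to 1.38 for triple against suvh2suvh9. With only the genes with no repeated sequence, that ratio was 0.451 for suvh2suvh9 against WT, 4.13 for triple against suvh2suvh9 and 5.6 for pol2a-2 against pol2a-1 meiocytes, and 0.895 for pol2a-2 against WT seedlings, where it was 0.966 without the highest gene. Of 79 fold changes of single genes, which include called genes not named in the text, 1490 outcomes over all alternatives kept their side of the threshold, 167 lost and 14 gained a call, and 4 reversed. Without the filter, called members were 8 lower for suvh2suvh9 against WT meiocytes, 1 higher and 1 lower for triple against WT, 12 higher for triple against suvh2suvh9, 38 higher for pol2a-2 against pol2a-1, 12 higher for the tissue difference of pol2a-2 against pol2a-1 and 1 higher for that of triple against suvh2suvh9. DESeq2 called 4 lower, 2 higher, 9 higher and 33 higher in the 4 meiocyte comparisons in that order, and 11 for the tissue difference of pol2a-2. Fitted to only the groups compared, triple against suvh2suvh9 had 0 calls, the tissue difference of pol2a-2 had 0 higher, and WT meiocytes against WT seedlings had 0 lower. Leaving out 1 library gave 0 to 1 calls for triple against suvh2suvh9, 2 to 21 for pol2a-2 against pol2a-1, 0 to 6 for its tissue difference, and 23 to 31 higher and 0 to 1 lower for WT meiocytes against WT seedlings. Of the genes with no repeated sequence, 4 of 4 tested were higher and 0 lower in WT meiocytes. The cause of these shifts was not tested, except that dropping the filter tests more genes.

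The share without the highest gene was 0.131% in pol2a-2, 0.0261% in pol2a-1, 0.0294% in triple, 0.0134% in suvh2suvh9 and 0.0208% in WT meiocytes, and 0.00350%, 0.00373%, 0.00159% and 0.00362% in pol2a-2, pol2a-1, suvh2suvh9 and WT seedlings. Counting only genes with no repeated sequence gave 0.0202%, 0.00361%, 0.00811%, 0.00196% and 0.00434% in pol2a-2, pol2a-1, triple, suvh2suvh9 and WT meiocytes, and 0.000483%, 0.000747%, 0.000169%, 0.000147% and 0.000540% in the same order of seedlings. Same-numbered libraries did not deviate together, so the numbers do not pair them. With the replicate number as a block, 16 members were called for pol2a-2 against pol2a-1 meiocytes and 28 higher for the WT tissues; of the calls named in the text, ATMG01120 (adjusted p = 0.0576, edgeR) and the tissue difference of cox2 (0.0599) were lost, as were WHY2 (0.0794) and AT1G30680 (0.0774) in pol2a-2 seedlings and AT2G21640 against pol2a-1 (0.0976). The median log2 of all features between WT tissues was -0.20 with TMM and -0.33 with DESeq2 size factors, under which 27 members were called higher. Seedling shares rest on 435 to 2307 counts a library, which limits differences between seedling groups.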
